A study of Mus musculus with 15 samples.

Results

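The regions described here are binding sites of heat shock factor 1 (HSF1) in mouse brown adipose tissue (BAT) after 40 min of cold, followed to 4 h of cold. They come from 4 of the 10 HSF1 ChIP-seq peak lists of the series: wild type mice exposed to cold stress for 40 min (replicates 1 and 2) and wild type mice exposed for 4 h (replicates 1 and 2). Peaks on chromosomes 1 to 19, X and Y were taken, a peak with the same start and end as another was counted once, and overlapping peaks of the 4 lists (1 bp or more) were joined into regions. The 4 lists held 4431 peaks, which gave 2476 regions, against 18176 regions when all 10 lists were merged. Both 40 min libraries called 1483 of the 2476 regions, and these are the sites of acute cold whose presence at 4 h was examined. A region was held when both 4 h libraries also had a peak in it, and lost when neither had.

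All groups used are labelled wild type, with no other allele or agent named. A pair of wild type libraries at room temperature was set beside them, while a second wild type pair at 40 min and a TXNIP knockout pair at 40 min belong to other comparisons. Tissue was crosslinked with 2 mM DSG for 25 min and then with 0.8% formaldehyde for 12 min, and HSF1 was precipitated with Cell Signaling antibody 4356. The sources used here do not give the strain, the age, the temperature of the cold or whether the libraries of a group come from separate animals, so the spread between replicates may be technical. The lists hold no read counts, so the depth of each library is unknown. The value of a peak is its fold enrichment, the authors' linear ratio of ChIP signal to local background at the summit. Folds of different libraries are set side by side to describe them, with no test of their levels. A region without a peak is one that passed no call threshold, which does not show that HSF1 was absent from it. ChIP of whole tissue also cannot separate fewer cells with HSF1 on a site from less HSF1 per cell.

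HSF1 is the main transcription factor of the heat shock response. When misfolded proteins occupy the chaperones that hold it inactive, it forms trimers and binds heat shock elements, which are arrays of the pentamer nGAAn in alternating orientation. Its classic targets are genes of cytosolic chaperones such as HSP70 and HSP90, and binding falls again once chaperones are restored. Brown fat burns lipid and glucose to make heat in the cold.

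The following stretches show what the promoter sites look like at regions with different outcomes. The search was for 3 alternating units with 2 bases between them, spelled GAANNTTCNNGAA or TTCNNGAANNTTC, on both strands, with at most 1 mismatch in the outer units. The sequences are from RefSeq promoter windows of build GRCm38.p6, written 5′ to 3′ on the strand of the gene and upstream of its start, with the bases of each match in capitals. The first 5 were held at 4 h, Dnaja4 was called in 1 of the 2 libraries at 4 h, and Kctd18 and Psph were lost. Hspd1 and Kctd18 both have long arrays of units and differed in outcome.
Hspd1: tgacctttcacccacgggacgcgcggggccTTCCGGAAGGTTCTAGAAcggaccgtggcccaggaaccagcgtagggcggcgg
Hspa1b: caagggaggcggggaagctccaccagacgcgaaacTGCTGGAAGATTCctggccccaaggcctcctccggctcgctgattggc
Hsph1: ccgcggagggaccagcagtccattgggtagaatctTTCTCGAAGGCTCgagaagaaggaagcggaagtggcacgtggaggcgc
Fkbp4: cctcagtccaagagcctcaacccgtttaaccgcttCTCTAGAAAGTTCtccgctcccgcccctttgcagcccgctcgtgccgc
Hspb1: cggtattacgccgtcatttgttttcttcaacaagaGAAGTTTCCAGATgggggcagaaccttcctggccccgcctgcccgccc
Dnaja4: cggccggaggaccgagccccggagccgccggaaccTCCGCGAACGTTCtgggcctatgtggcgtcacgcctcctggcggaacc
Kctd18: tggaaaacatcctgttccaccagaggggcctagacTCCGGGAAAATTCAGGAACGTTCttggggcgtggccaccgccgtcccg
Psph: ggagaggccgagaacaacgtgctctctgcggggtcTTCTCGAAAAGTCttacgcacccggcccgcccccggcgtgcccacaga

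These stretches lie at chr1:55088024-55088106 on the minus strand (Hspd1), chr17:34959300-34959382 on the minus strand (Hspa1b) and chr5:149636322-149636404 on the minus strand (Hsph1). Fkbp4 is at chr6:128438765-128438847 on the minus strand and Hspb1 at chr5:135887767-135887849 on the plus strand. Dnaja4 is at chr9:54699429-54699511 on the plus strand, Kctd18 at chr1:57970200-57970282 on the minus strand and Psph at chr5:129787340-129787422 on the minus strand. The Psph region lies at the start it shares with Cct6a, a subunit gene of the chaperonin TRiC. The same 83 bases as in Hspa1b precede its neighbour Hspa1a, so reads of these gene copies may have been split between them.

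Most sites of acute cold were not called after 4 h. Of the 1483 regions, 105 were held in both 4 h libraries (7.08%, 95% Wilson interval 5.88 to 8.50%), 230 were called in 1 of the 2 (15.5%) and 1148 in neither (77.4%). Intervals cover counting error over regions only. Summits of held regions were close at both times: that of 4 h replicate 2 lay a median of 19 bp from that of the stronger 40 min peak. For 88 of the 105 this distance was at most 50 bp. Summits of 4 h replicate 1 were not measured in this way. Among the held sites were promoters of cytosolic HSP70 and HSP90 genes, the HSP60 gene and the HSP110 genes Hsph1 and Hspa4l. Their relatives Hspa4, Hspa9 and Hsp90b1 were not held. The promoter of the ubiquitin gene Ubb and a site inside the clock gene Per2 were held too. In the other direction, 107 regions were called in both 4 h libraries, and 1 of them was called in neither 40 min library (0.935%). By this count nearly all 4 h sites were also sites of acute cold, but the 40 min lists were far longer. With each list cut to its 123 strongest peaks, 57 regions were held and 19 gained.

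The number of held regions rests on 4 h replicate 1, which had the shortest list. Peaks numbered 2287 and 1670 at 40 min (mean ± SD of 1978.5 ± 436, n = 2) and 123 and 351 at 4 h (237 ± 161, n = 2). Both 4 h lists were shorter than both 40 min lists, with a difference in mean log2 number of -3.23. A two-sided exact permutation test of 2 libraries against 2 gave p = 0.333, the smallest it can give. Of the 230 regions called once, 226 were in replicate 2 and 4 in replicate 1. Without 4 h replicate 1 the held regions number 331 and the lost ones 1152. Lost regions have a peak in neither 4 h library, so leaving 1 of these out cannot lower their number. Without 40 min replicate 2 there were 1939 lost and 105 held regions. Median folds per list were 7.01 and 7.79 at 40 min and 7.12 and 7.94 at 4 h, although the highest folds were 400.4 and 328 at 40 min against 53.6 and 117 at 4 h. Medians of lists cut at a call threshold do not compare the same sites. How much of the shorter lists comes from library yield or depth was not tested. That most sites were lost depends on list length. With each list cut to its 123 strongest peaks, 57 of 108 regions were held (52.8%) and 40 were lost (37.0%).

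Strength at 40 min ordered the outcome. Regions were split into 10 equal parts by their mean log2 fold at 40 min. In the strongest part, with folds of 22.8 to 363, 62 of 149 regions were held (41.6%, Wilson interval 34.0 to 49.6%) and 31 were lost (20.8%). The held share was 12.8% in the next part and 5.41% in the one after it. In the parts from the 7th to the 9th, with folds of 5.13 to 7.79, none of the 148 regions in each was held, and 95.9 to 98.6% were lost. The weakest part broke this order, with 7 of 149 regions held (4.70%). Those 7 had mean 40 min folds under 5. Of these, 5 lay over 100 kb from a gene start, with folds of 1.35 to 4.92 in all 4 libraries.

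**Figure D1:**
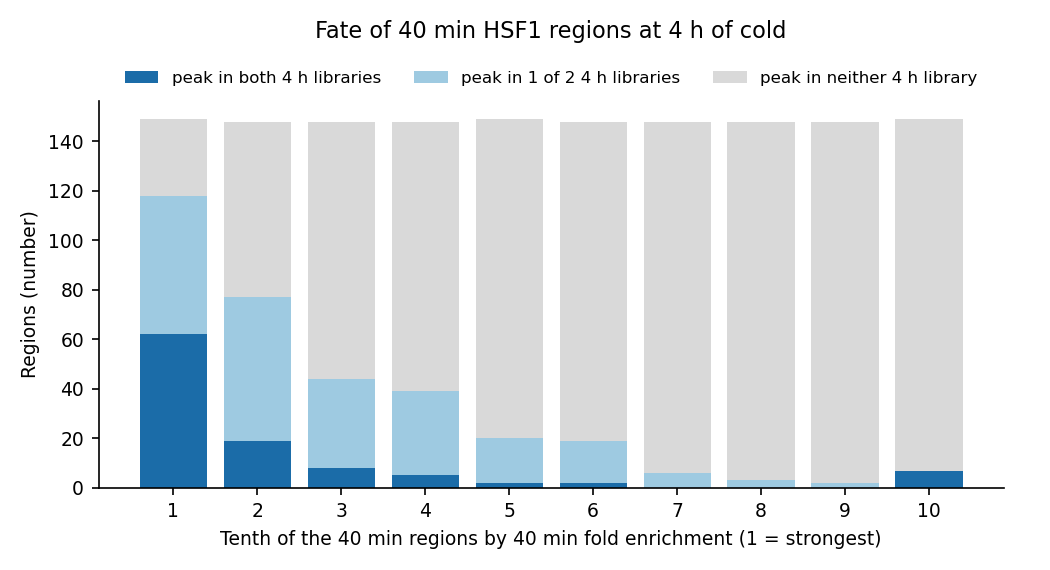
Number of 40 min regions (vertical axis) in each of 10 equal parts by 40 min fold enrichment, strongest at the left, with colours for regions called in both, 1 or neither 4 h library. Held regions number 62 in the strongest part and 0 in the parts from the 7th to the 9th, and 7 reappear in the weakest.

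The strongest held sites were chaperone promoters. A region counts as near a gene start when its summit lies within 1000 bp of it. The start was taken from the RefSeq promoter windows for 17492 coding genes, and for the other 4395 either end of the gene was used. The first region in all 4 lists was the promoter shared by Hspd1 and Hspe1, which encode the mitochondrial chaperonin HSP60 and its partner HSP10. Its folds were 400.4 and 328 at 40 min and 53.6 and 117 at 4 h, against 194 and 193 at room temperature. The 4 h values lay below those of 40 min and of room temperature in both replicates. The log2 ratio of the 4 h to the 40 min fold was -2.19.

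The HSP70 genes Hspa8, Hspa1b and Hspa1a were held with unequal remaining folds. Hspa8, the constitutive HSP70, had folds of 162 and 154 at 40 min and 26.4 and 55.0 at 4 h. Hspa1b, the stress-inducible HSP70, had 171 and 132 at 40 min and 12.4 and 19.3 at 4 h. Its copy Hspa1a, whose region also serves Hspa1l, had 139 and 123 at 40 min and 8.27 and 15.7 at 4 h. All 3 regions stood at similar levels at 40 min, and at 4 h both values of Hspa8 lay above both values of the inducible genes. The log2 ratio of 4 h to 40 min was -3.52 for Hspa1a, the lowest among the 105 held regions, and -2.05 for Hspa8. St13, which encodes the HSP70-interacting protein Hip and shares its region with Xpnpep3, had 156 and 154 at 40 min and 44.6 and 78.9 at 4 h. It ranked 10th and 7th at 40 min and stood second in both 4 h lists.

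HSP90 and its co-chaperones followed. Hsp90ab1, the constitutive cytosolic HSP90, had folds of 224 and 208 at 40 min and 22.3 and 43.0 at 4 h. Hsp90aa1, the inducible form, had 179 and 134 at 40 min and 20.4 and 40.0 at 4 h. Each of them was lower in both 4 h libraries than in both 40 min libraries. Dnaja1, a J-domain partner that activates HSP70, had 192 and 178 at 40 min and 23.4 and 35.4 at 4 h. Hsph1, the HSP110 that exchanges nucleotide on HSP70, had 159 and 126 at 40 min and 15.4 and 32.1 at 4 h. Hspb1, the small heat shock protein HSP25, had 129 and 91.8 at 40 min and 12.0 and 17.9 at 4 h. Fkbp4 and Stip1, HSP90 co-chaperones, and Hspa4l, another HSP110, were also among the first 15 held promoters. Their folds ranged from 87.4 to 137 at 40 min and from 9.57 to 30.1 at 4 h. The remaining ones were Uspl1, a SUMO protease gene with folds of 226 and 208 at 40 min and 25.7 and 62.1 at 4 h, and Ubqln1. The latter encodes a shuttle factor of the proteasome.

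Held and lost members were counted in gene lists by role. A gene counts as bound when a 40 min region lies near its start, which was so for 383 of 21887 coding genes (1.75%). Of these, 52 were held (13.6%), 45 were called in 1 of the 2 libraries (11.7%) and 286 were lost (74.7%). Across 7 chaperone lists with 101 members, 47 were bound, 22 were held (46.8% of those bound), 9 were called once and 16 were lost (34.0%). In the HSP70 list 7 of 12 bound members were held, and Bag2, Hikeshi, Hspa4 and Hspbp1 were lost. In the HSP90 list 6 of 11 were held, and Nudc and Ppid were lost. All 8 subunit genes of the chaperonin TRiC were bound at 40 min, 3 were held (Cct3, Cct4, Cct8) and 3 were lost (Cct2, Cct5, Cct6a). Of 7 bound J-domain genes, 2 were held (Dnaja1, Dnajb1) and 4 were lost (Dnajb2, Dnajb4, Dnajb5, Dnajb6). The small heat shock protein list had Hspb1 held and Hspb8 lost. Of the bound mitochondrial genes Hspa9 was lost. Of 4 endoplasmic reticulum genes Serpinh1, the collagen chaperone HSP47, was held, Hsp90b1 and Pdia3 were called once and Canx was lost. All 3 bound ubiquitin and degradation genes were held (Ubb, Uspl1, Zfand2a).

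**Figure D2:**
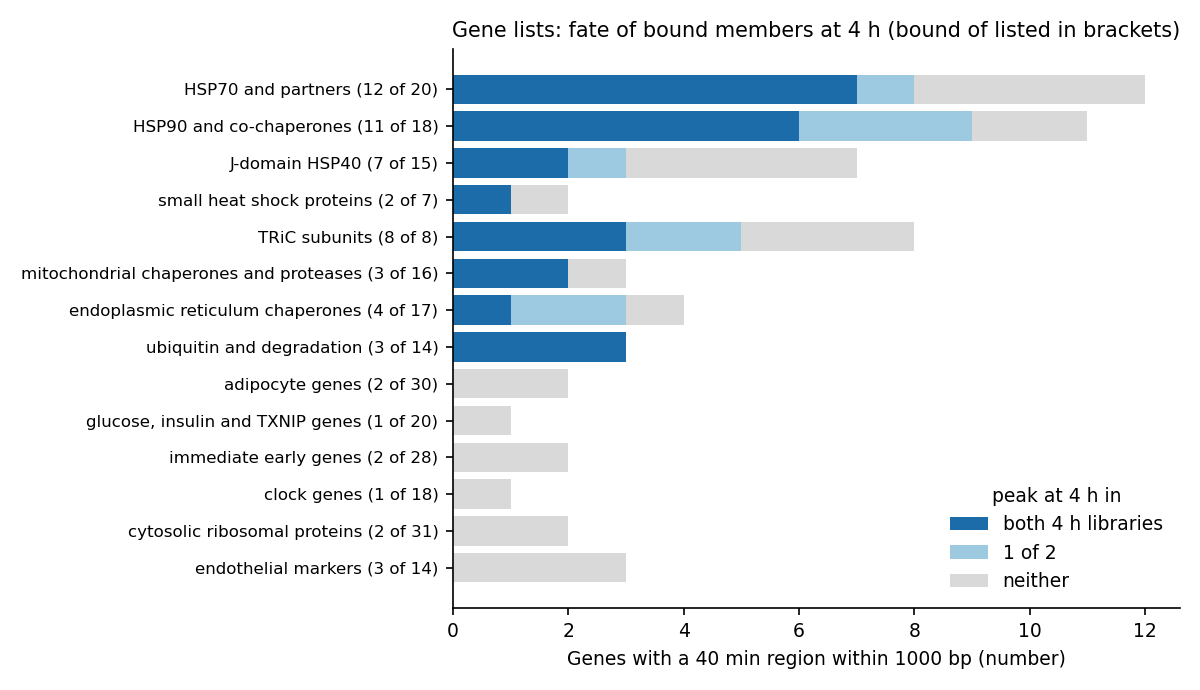
Number of genes with a 40 min region within 1000 bp (horizontal axis) in each list that had any, coloured by whether that region was called in both, 1 or neither 4 h library. Held members stand in the chaperone and ubiquitin lists. The bound members of the other 6 lists were lost, as were 74.7% of all bound genes. Median 40 min folds of those 6 lists were 4.67 to 15.2, against 53.2 over the 7 chaperone lists.

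Chaperone promoters were stronger at 40 min than other bound promoters, and their outcome has to be read beside that. Their 45 regions had a median 40 min fold of 53.2, against 10.1 for the other 299 regions near gene starts. At folds of 80 or more, 16 of 16 chaperone regions and 5 of 5 others were held. Between 40 and 80, 2 of 9 chaperone regions were held and 7 were called once, while 13 of 17 others were held. Between 20 and 40 the counts were 2 of 9 and 3 of 32. Within these bands the chaperone promoters were thus not held more often throughout.

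Several strong chaperone promoters were called in 4 h replicate 2 alone. Dnaja4, a J-domain gene, had folds of 92.5 and 63.2 at 40 min and 10.4 in the 1 library at 4 h that called it. Cacybp, whose protein binds the ubiquitin ligase SIAH1, had 75.6 and 64.6 at 40 min and 13.6 at 4 h. Ahsa1 and Ptges3, the HSP90 co-chaperones AHA1 and p23, had 53.2 to 73.7 at 40 min and 9.11 and 8.57 at 4 h. Bag3, a co-chaperone of selective autophagy, had 62.8 and 45.1 at 40 min and 8.21 at 4 h. The strongest region of this kind was at Phlda1, with 96.2 and 66.0 at 40 min and 14.3 at 4 h. All of these stood within rank 49 of both 40 min lists, and replicate 1 at 4 h called none of them.

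The strongest lost promoter was Kctd18, a gene of a BTB domain protein, with folds of 63.8 and 47.9 at 40 min and 37.2 and 46.5 at room temperature. Its summit lay 170 bp from the start, at chr1:57970254. It stood at ranks 39 and 45 of the 40 min lists and had no peak in either 4 h list. Mrfap1 had 39.0 and 27.0 at 40 min, and Castor1, whose protein senses arginine for mTORC1, had 38.4 and 24.5. The start shared by Swt1 and Trmt1l had 39.6 and 23.1. Dynll1, a dynein light chain gene, had 26.6 and 26.2, and Hikeshi, whose protein carries HSP70 into the nucleus, had 30.4 and 22.7. Chrac1, Gm20346, Dnajb2 and Mpdz had 40 min folds of 20.6 to 29.0. All 10 of these promoters were called in both room temperature libraries, with folds of 6.68 to 46.5. Jun, an immediate early gene, was also lost, from 21.8 and 23.4 at 40 min.

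**Figure D3:**
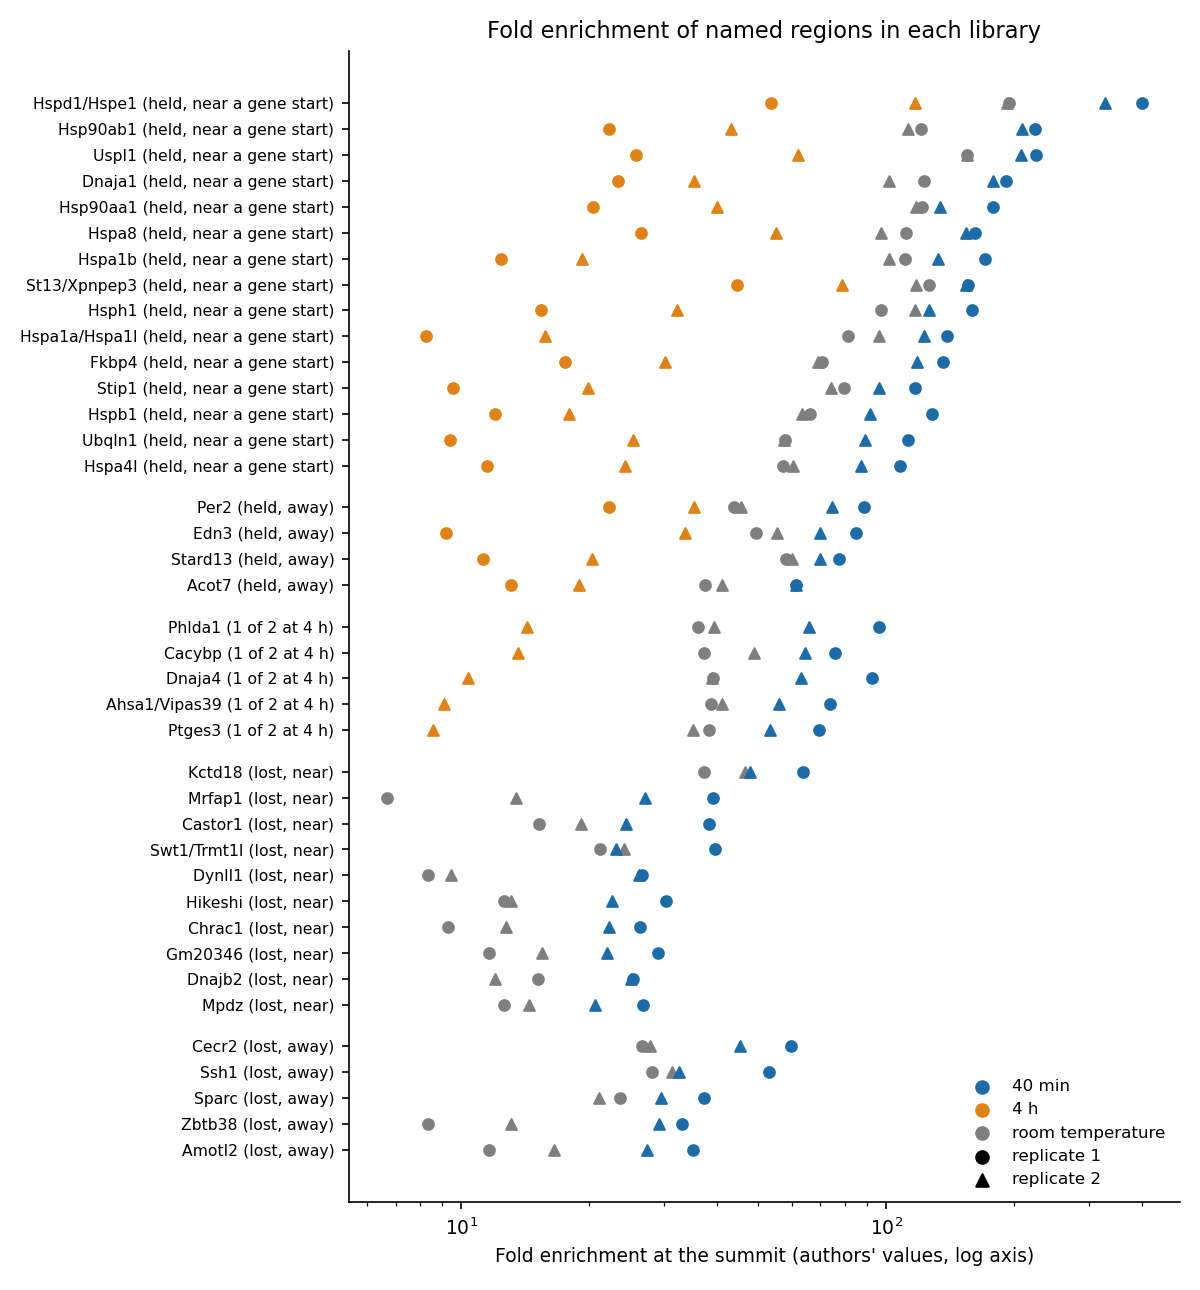
Fold enrichment of named regions (horizontal log axis) in each library of room temperature, 40 min and 4 h, with circles for replicate 1 and triangles for replicate 2. Points are missing where a library had no peak. For the 15 held promoters, all 4 h points lie to the left of the 40 min points.

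Held regions were more often near a gene start than lost ones. Of the 105 held regions 43 were near a gene start (41%, Wilson interval 32.0 to 50.5%), against 40 of 230 called once (17.4%), 261 of 1148 lost (22.7%) and 344 of all 1483 (23.2%). The median distance to the nearest start was 4557 bp for held and 13830 bp for lost regions. This share also rests on 4 h replicate 1: without it, 25.1% of held regions were near a gene start. The share of all peaks near a gene start was 21.7 and 22.4% at 40 min and 38.2 and 24.5% at 4 h, and a two-sided exact permutation test gave p = 0.333. The difference of 9.31 percentage points between the means was 2.46 without 4 h replicate 1 and 16.2 without 4 h replicate 2.

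At equal 40 min strength the order was the other way in the middle range. Among regions with 40 min folds of 10 to 20, 4 h replicate 2 called 11 of 102 near a gene start (10.8%, Wilson interval 6.13 to 18.3%) and 126 of 353 away from one (35.7%, 30.9 to 40.8%). Both kinds had similar median folds at 40 min, 12.7 and 13.3. Replicate 1 called 0.980% and 6.23% of them. At folds of 20 to 40, replicate 2 called 53.7% near and 70.3% away, and replicate 1 called 12.2% and 25.3%. In this band the intervals overlapped, at 38.8 to 67.9% near and 60.3 to 78.7% away in replicate 2. They also overlapped between 40 and 80, with 57.7% of 26 near and 61.5% of 13 away held in both libraries. At 80 or more every region was held, 21 near and 2 away. The 4 h libraries showed the same order in both bands from 10 to 40.

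**Figure D4:**
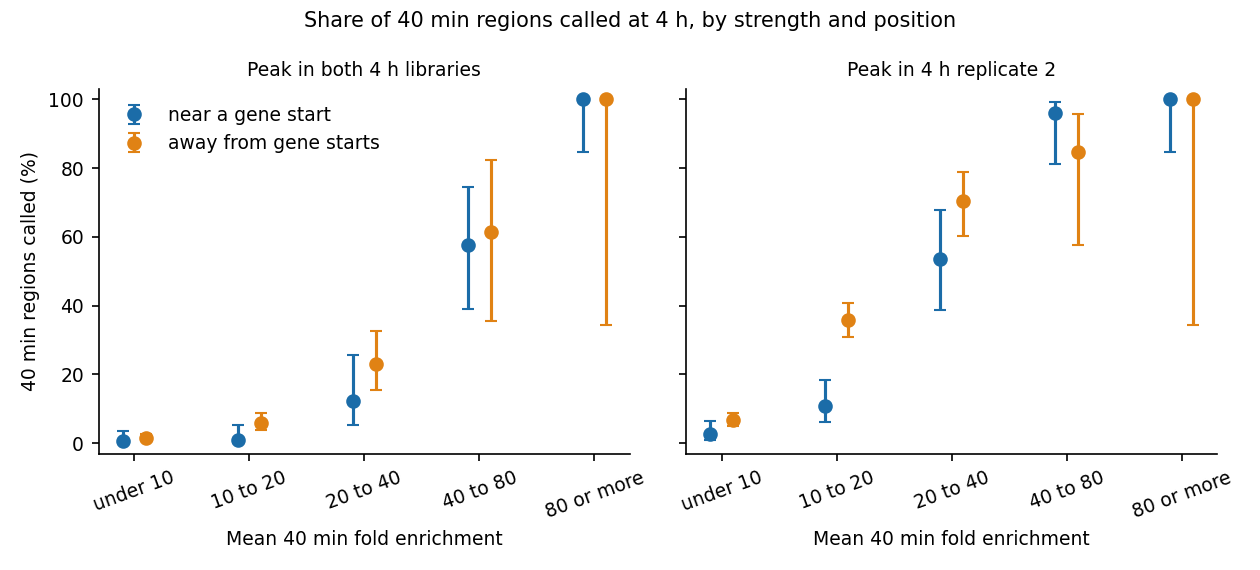
Share of 40 min regions called at 4 h (vertical axis, percent) by mean 40 min fold, for regions near and away from gene starts, in both 4 h libraries (left) and in replicate 2 (right), with 95% Wilson intervals. In the band of 10 to 20 the right panel shows 10.8% near and 35.7% away, with intervals that do not overlap.

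The strongest peaks of each list gave the same picture without any matching of lists. Of the 25 strongest peaks, 92.0 and 92.0% were near a gene start in the 40 min libraries, 88.0 and 88.0% at room temperature and 60 and 60% at 4 h. Of the 50 strongest, the shares were 80 and 80% at 40 min and 48.0 and 52.0% at 4 h. Both 4 h libraries lay below all 4 others. The same number of peaks was taken from each list, but it is a larger part of a shorter list. At rank 25 the fold was 86.26 in 40 min replicate 1 and 11.25 in 4 h replicate 1. Whether library yield or depth adds to the difference was not tested. The differences in share each gave p = 0.333 in a two-sided exact permutation test of 40 min against 4 h, the smallest possible. In all, 5 values per library were tested in this way, and the adjusted p was 0.333 for each. The strongest-peak shares were chosen after values had been seen.

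Near and away from gene starts, the order of the held regions changed differently. All 43 held promoter regions had both 4 h folds below both 40 min folds, with a median log2 difference of -2.51. Of the 62 held regions away from gene starts, 50 were lower in this way, 11 overlapped and 1 was higher, with a median of -1.12. The higher one lay 102906 bp from Esp38, with folds of 1.69 and 1.47 at 40 min and 1.735 and 3.65 at 4 h. All 7 held regions with mean 40 min folds under 5 were among those that overlapped or were higher. A weak region can be held only if its 4 h peak was still called, so small differences are favoured among weak regions. Ordered among the 105 by their folds, 32 promoter regions dropped and 9 climbed, while 43 of the regions away from starts climbed and 16 dropped. Promoter regions began higher, at a median order of 24 against 72.5, so they had more room to drop and the others more to climb. These counts do not separate position from the order at 40 min.

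The 5 regions that climbed most were all away from gene starts. The first lay 12334 bp from Tbl1xr1, a gene of a corepressor exchange factor, with folds of 9.59 and 13.6 at 40 min and 9.19 and 15.7 at 4 h. Its order rose from 93 to 33 and neither room temperature library called it. The others were nearest to Lifr, the receptor of leukaemia inhibitory factor (order 77 to 32), Cilk1 (54 to 16) and Ticam1 (56 to 22), besides 1 not reported here. The region nearest to Ticam1 lies inside Plin3, a gene of a lipid droplet coat protein, with folds of 35.3 and 23.9 at 40 min and 10.3 and 22.5 at 4 h. The 5 that dropped most were all promoters. P4ha1, a collagen prolyl hydroxylase gene, had 90.6 and 81.3 at 40 min and 5.45 and 14.2 at 4 h, and its order went from 18 to 63. Naa16 went from 29 to 74, Cct4 from 31 to 64, Ankrd26 from 66 to 98 and the start shared by Mrpl38 and Trim65 from 39 to 71.

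**Figure D5:**
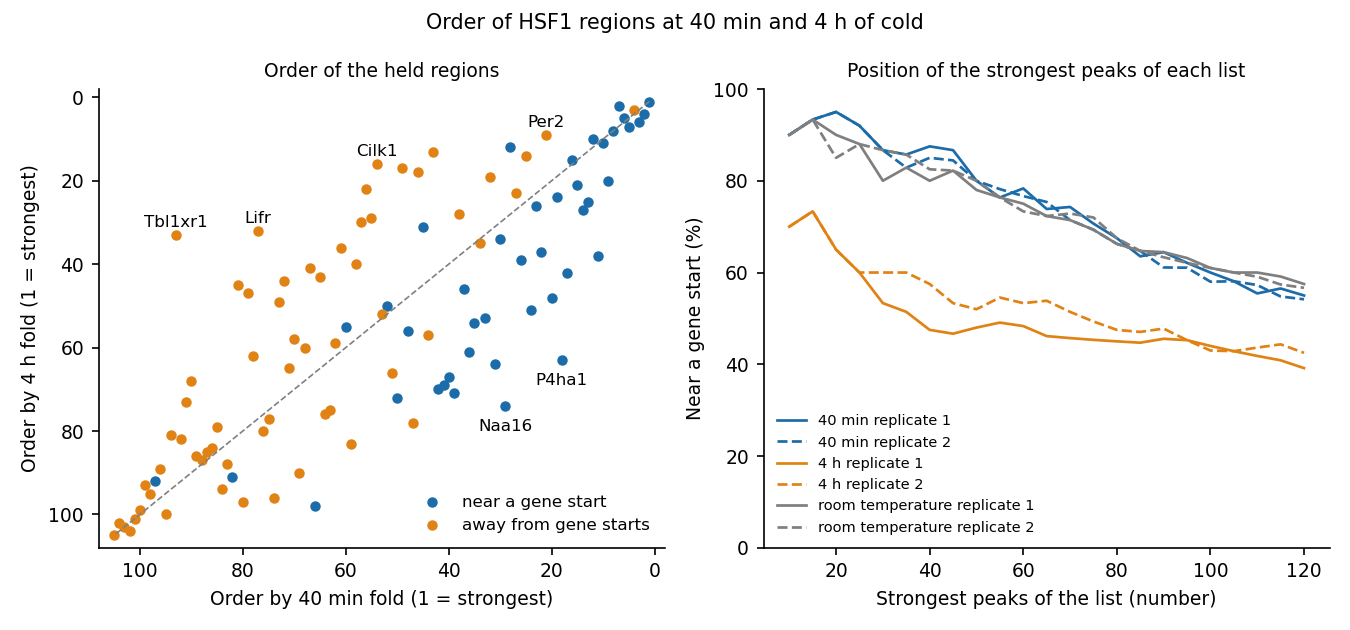
Left, order of the 105 held regions by 40 min fold (horizontal axis) and 4 h fold (vertical axis), 1 being the strongest, with points above the dashed line having climbed. Right, percent of the strongest peaks of each list near a gene start (vertical axis) by the number of peaks taken (horizontal axis), where both 4 h lists run below the other 4.

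Among the strongest held regions away from a start was 1 inside Per2, a core repressor of the circadian clock, 20426 bp from an end of the gene, at chr1:91436403. It had 88.8 and 74.7 at 40 min and 22.3 and 35.3 at 4 h, and it moved from rank 22 and 23 to rank 10 and 8. Per2 had sites of both outcomes: the region at its promoter, with 5.80 and 4.12 at 40 min, and another inside the gene, with 15.8 and 13, were lost. P4ha1 was alike, with a held promoter and a region 11845 bp into the gene that was lost from 38.2 and 25.0. Regions nearest to Edn3 (97987 bp), Stard13 (inside the gene) and Acot7 (7648 bp), which encodes an acyl-CoA thioesterase, had 61.2 to 85.1 at 40 min and 9.19 to 33.6 at 4 h.

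The strongest lost region away from a start lay 21786 bp from Cecr2, with folds of 59.7 and 45.4 at 40 min. The next were inside Ssh1, with 52.9 and 32.6, and inside Sparc, a gene of a matrix glycoprotein, with 37.2 and 29.5. Regions 21185 bp from Zbtb38 and inside Amotl2 had 27.3 to 35. All 5 were called in both room temperature libraries.

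Held sites were mostly sites of room temperature tissue. Of the 105 held regions, 96 were called in both room temperature libraries (91.4%, Wilson interval 84.5 to 95.4%), 6 in 1 and 3 in neither. Of the 1148 lost regions, 480 were called in both (41.8%, 39.0 to 44.7%) and 387 in neither (33.7%). Seen from room temperature, 3 of 409 regions without a room temperature peak were held (0.733%), against 96 of 756 with a peak in both libraries (12.7%). These sets also differed in strength, with median 40 min folds of 6.22 and 13.6. Within 40 min folds of 10 to 20, 2 of 26 and 18 of 367 were held (7.69% and 4.90%), with overlapping intervals. Most regions without a room temperature peak had 40 min folds under 10. Of these, 1 of 383 was held (0.261%, Wilson interval 0.0461 to 1.46%). With a peak in both libraries, 7 of 199 were held in that band (3.52%, 1.71 to 7.08%), and these intervals did not overlap. Median 40 min folds there were 6.125 and 7.623. Of all 7 held regions with mean 40 min folds under 5, 5 had a peak in both room temperature libraries. The 3 held regions absent at room temperature were that near Tbl1xr1, 1 inside Nisch with 12.3 and 12.8 at 40 min and 6.89 and 10.4 at 4 h, and 1 inside Lamc1 with 7.97 and 10.9 at 40 min and 5.05 and 8.93 at 4 h.

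The single region called in both 4 h libraries and in neither 40 min library lay 273 bp from the start of Pgk1, the gene of the glycolytic enzyme phosphoglycerate kinase, at chrX:106186827. Its folds at 4 h were 31.7 and 5.71, at ranks 4 and 289, so the replicates differed more than at any held chaperone promoter named here. Room temperature replicate 2 also called it, with 6.25, and so did the second 40 min pair, with 5.97 and 5.66. With summits required to lie within 100 bp of each other, no region was gained. The count was 5 without 4 h replicate 1, 8 without 4 h replicate 2 and 2 without 40 min replicate 2.

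None of 27 thermogenic genes had a 40 min region near its start in both libraries, a count that the share of 1.75% over all coding genes also gives. Of 30 adipocyte genes 2 had, Lipe, which encodes hormone-sensitive lipase, with 21.3 and 14.5, and Plin2, a lipid droplet coat gene, with 15.2 and 10.9, and both were lost, as were 74.7% of all bound genes. Ucp1, the uncoupling protein of brown fat, had within 5000 bp a single peak of 3.62 in 40 min replicate 1. Inside Ppargc1a, the coactivator gene of mitochondrial biogenesis, the strongest region had 15.2 and 21.7 at 40 min and 4.30 in 4 h replicate 2 alone. Inside Prdm16, a determinant of brown fat identity, the strongest region had 14.5 and 11.7 at 40 min and no peak at 4 h. Dio2, Pparg and Cebpa had no peak in the gene or within 5000 bp in any of the 4 libraries.

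The other lists held no member at 4 h, while 74.7% of all bound genes were lost. Those with a bound member had median 40 min folds of 4.67 to 13.9, against 53.2 over the 7 chaperone lists. Arrdc4, an arrestin related to TXNIP, was the 1 bound gene of 20 in the glucose, insulin and TXNIP list, with 8.22 and 3.90 at 40 min, and it was lost. Crem and Jun were lost from 28 immediate early genes, Per2 (by its promoter region) from 18 clock genes, Rpl15 and Rps18 from 31 ribosomal protein genes, and Flt1, Mmrn2 and Tie1 from 14 endothelial markers. No gene was bound among 17 HSF genes and stress regulators, 31 proteasome subunits, 26 respiratory chain subunits, 14 skeletal muscle markers, 14 leukocyte markers and 15 olfactory receptors. At 1.75% of all coding genes, lists of this size would mostly have no bound member, so these counts of 0 set none of them apart. Peak lists of HSF1 carry no expression, so the labelled tissue could not be checked with these markers.

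Promoters of held regions more often had the heat shock array. The search was made in RefSeq windows of 300 bp, from 250 before to 50 after a start, where the summit fell inside the window. An array with at most 1 mismatch was found in 12 of 15 windows of held regions (80%, Wilson interval 54.8 to 93.0%), 5 of 11 of those called once (45.5%) and 31 of 80 of lost regions (38.8%, 28.8 to 49.7%). The 15 held windows include those of Hspa1a and Hspa1b, whose stretches around the match are the same, so 1 match was counted for both. Among all 21263 windows of coding genes an array was found in 4.44%. The 12 windows of lost regions with 40 min folds of 20 or more had it in 5 cases (41.7%, 19.3 to 68.0%), an interval that overlaps that of the held. Without a mismatch the shares were 26.7, 27.3 and 12.5%, against 0.517% of all windows. The match lay at a median of 32.5 bp from the summit in held and 17 bp in lost windows. Only windows of 300 bp that held the summit were searched, which limits this distance. Held promoters without a match in the window were Stip1, Ube2d3 and Rsrp1, and Kctd18, shown above, had 3 matches, 2 of them exact, and was lost.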

How the data were processed

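HSF1 ChIP-seq of BAT was analysed from the narrow peak lists that the authors deposited, 1 per library. The submitters' processing notes name MACS2 2.2.7.1 among the tools, with BWA 0.7.17, Trim Galore 0.6.0, deepTools 3.4.3 and SAMtools, and build GRCm38.p6 (mm10). For read filters and the input of each library the sources used here give nothing. The deposited fold enrichment is a linear ratio per peak, and the authors' lists also hold −log10 p-value and −log10 q-value columns. The smallest −log10 q in the 4 lists was 1.30. Depth is unknown, since no counts are given.

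Peaks were merged, classed and placed against RefSeq coding genes with Python 3.11.15, pandas 2.3.3, numpy 2.4.6 and scipy 1.17.1, and plotted with matplotlib 3.10.9. The merging and the motif search were tested on simulated data. Folds were used to order regions, and the mean log2 fold of a pair to band them. No genome was used here, so motifs were searched in promoter windows only. The lists of 404 symbols all matched. Members, lists and measures were chosen with earlier results of these data known. Regions were named by a rule: by 40 min rank, the first 15 held and 10 lost near a gene start, 5 of each away from one, 5 called once, regions gained, the 5 that climbed and the 5 that dropped most, bound chaperones and fixed genes. 2 regions that this rule takes are not reported here. Jun, Nisch, Lamc1, Lipe, Plin2 and members of other lists fall outside this rule and were named after their values were seen. Alternatives were summit distance, q thresholds, lists of equal length, distances to genes, motif settings and leaving out each library.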

Additional observations from a re-analysis of the deposited data

Results flagged for a closer look

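Peaks on scaffolds outside chromosomes 1 to 19, X and Y were not part of any comparison. 40 min replicate 2 had 6 such peaks, against 1 in 40 min replicate 1 and 3 in each 4 h library.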

How the results depend on the processing

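Of 88 values under alternatives, 69 kept their direction and their side of the threshold or stayed within their limits, 19 moved and none changed sign. The difference in the share of peaks near a gene start kept its sign but not its size, at 2.46 to 16.2 percentage points when a library was left out and 5.50 within 5000 bp (exact permutation p = 1). With each list reduced to its 123 strongest peaks, 108 regions were called in both 40 min libraries. Of these 57 were held (52.8%), 40 lost (37.0%) and 11 called once, so lost regions were no longer the majority. In this setting 19 regions were gained, and 68.4% of held and 32.5% of lost regions were near a gene start. With summits within 100 bp, 0 regions were gained. Within 500 bp of a start lay 16.6% of lost regions, and within 5000 bp 51.4% of held and 34.5% of lost regions. Leaving out each library gave 105 to 331 held, 1152 to 1939 lost and 1 to 8 gained regions, and 25.1 to 41.1% of held regions near a gene start. Without a mismatch the motif was in 26.7% of held and 12.5% of lost windows, and in windows of 150 bp in 21.3% of lost ones. The cause of these shifts was not tested, except that shorter lists and wider distances act by construction. With the replicate number as a block (replicate block), the log2 difference in peak number was -3.23 with an exact permutation p of 0.5, the smallest that 2 pairs can give; the labels do not say that equal numbers mark paired samples. The alternatives that measured to either end of every gene or left out mean 40 min folds under 5 were chosen after seeing the data. They changed no value beyond its limits. Depth is unknown, so weak binding at 4 h was not detectable below the authors' call threshold.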

Other observations

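Some held regions away from gene starts were picked out after their values had been seen. They form no tested group, and of the fixed lists of adipocyte genes and of glucose, insulin and TXNIP genes no member was held near its start. A region inside Insr, the insulin receptor gene, had folds of 14.5 and 15.6 at 40 min and 5.07 and 9.85 at 4 h. A region 14182 bp from Lpl, which encodes lipoprotein lipase, had 22.0 and 16.1 at 40 min and 6.66 and 8.93 at 4 h. Inside Mgll, the monoglyceride lipase gene, 1 region was held with 15.2 and 15.9 at 40 min and 6.66 and 6.78 at 4 h, while another, with 12.6 and 10.6 at 40 min, was called in 4 h replicate 2 alone. A further 2 regions inside Mgll, with 5.32 to 7.51 at 40 min, were lost. A region 19386 bp from Vegfa, an angiogenic factor gene, had 24.9 and 20.6 at 40 min and 7.58 and 8.21 at 4 h. Regions at 2 genes of MAP kinase phosphatases were held: that 7384 bp from Dusp6 had 52.2 and 40.4 at 40 min and 12.4 and 27.8 at 4 h, and that inside Dusp16 had 24.6 and 18.1 and then 6.89 and 14.6. In each of these held regions the 4 h folds lay below the 40 min folds in both libraries.

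Regions inside Txnip and Slc2a1 were among the 7 held at mean 40 min folds under 5. The region inside Txnip, whose protein restrains glucose uptake, lay 1721 bp from the start, at chr3:96559678. It had folds of 3.87 and 5.01 at 40 min, 4.06 and 8.21 at 4 h, 4.30 in room temperature replicate 2 and none in replicate 1. Stronger regions near this gene were lost: that 6673 bp away had 12.1 and 12.8 at 40 min, and that 18549 bp away had 23.4 and 17.8. The region inside Slc2a1, the gene of the glucose transporter GLUT1, lay 24705 bp from the start, at chr4:119133450. It had 3.62 and 6.68 at 40 min and 6.89 and 5.71 at 4 h, and neither the second 40 min pair nor the knockout pair called it, although those lists hold 10399 to 14583 peaks. At both genes the 40 min and 4 h values overlapped. The lowest −log10 q among the held regions was 3.49 in 4 h replicate 1, at Txnip, and 5.53 in 4 h replicate 2, at Slc2a1.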
